A study of Mus musculus with 30 samples.

Results

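The granule genes followed here encode 3 granzymes (Gzma, Gzmb and Gzmc), the pore-forming protein perforin (Prf1), the granule membrane protein Nkg7, the proteoglycan core protein serglycin (Srgn), the intracellular serpins Serpinb9 and Serpinb6b, and the cysteine protease cathepsin W (Ctsw). They were chosen by gene symbol, with no cut on level but with earlier results of these data known. Shares of members set beside shares of all genes therefore only describe these genes and carry no test. All 9 were found, among the 25865 symbols measured in naive and activated cells and the 25860 measured after forskolin. The cells were CD4 T cells taken from the spleen and lymph nodes of mice labelled as a PKA knockout (KO) and of control mice (WT). Cells of each genotype were profiled in 3 conditions: naive, as sorted after CD4 enrichment; activated, after 3 days with antibodies to CD3 and CD28; and forskolin, after 3 days of rest with IL-7 and then 4 h with forskolin at 1 ug/mL. RNA was sequenced in all 3 conditions and open chromatin (ATAC-seq) in naive and activated cells, with 3 libraries in every group of KO and of WT cells. The labels name neither the PKA gene removed nor any Cre driver, and leave it unsaid whether libraries stand for separate animals; p-values therefore weigh differences against the spread between these samples, which may be technical. The samples include no cells rested with IL-7 and given no forskolin, so the rest and the forskolin cannot be told apart here.

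Cytotoxic lymphocytes kill by releasing granules in which serglycin holds granzymes and perforin, perforin then opening the way for granzymes into the target cell. Serpins of the intracellular clade, Serpinb9 above all as an inhibitor of granzyme B, are held to protect the killer cell from its own proteases. Most CD4 T cells are helper cells with little granule content, and granzyme B is known as a gene they switch on after stimulation. Protein kinase A (PKA) is freed by cyclic AMP, which forskolin raises by acting on adenylyl cyclase, and it phosphorylates the transcription factor CREB, whose binding motif is the cyclic AMP response element (CRE).

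Promoter sequences are shown for the 5 genes whose RNA was lower in activated KO cells, because open chromatin at or near their starts is compared further on, and for Gzmc, chosen after its promoter was seen to hold a full CRE. RefSeq, on GRCm38.p6 (the mm10 build), gave 9 promoters for 8 of the 9 genes, each running from 250 bases before the start to 50 after it, and Ctsw had no entry. The windows shown are chr14:56262285-56262584 (minus strand) for Gzmb, chr10:61297586-61297885 (plus strand) for Prf1, chr10:62507708-62508007 (minus strand) for the Srgn start that lies in open chromatin, chr13:33004291-33004590 (plus strand) for Serpinb9, chr13:32965011-32965310 (plus strand) for Serpinb6b, and chr14:56234608-56234907 (minus strand) for Gzmc. Capitals mark the motifs found on either strand: the full CRE, the short CRE, AP-1, the STAT element and RUNX, as spelled out after the sequences.
Gzmb: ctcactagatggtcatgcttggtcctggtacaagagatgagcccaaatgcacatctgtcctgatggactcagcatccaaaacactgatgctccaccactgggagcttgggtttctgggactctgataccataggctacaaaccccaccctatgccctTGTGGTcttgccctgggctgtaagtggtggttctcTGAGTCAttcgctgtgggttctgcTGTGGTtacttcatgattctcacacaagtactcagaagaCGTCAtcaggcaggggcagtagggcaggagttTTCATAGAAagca
Prf1: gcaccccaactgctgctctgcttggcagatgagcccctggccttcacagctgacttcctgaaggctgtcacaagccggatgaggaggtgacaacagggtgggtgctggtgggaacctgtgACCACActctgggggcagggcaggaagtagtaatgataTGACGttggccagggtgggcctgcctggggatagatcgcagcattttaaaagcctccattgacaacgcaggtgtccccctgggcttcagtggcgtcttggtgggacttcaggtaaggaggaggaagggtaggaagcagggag
Srgn: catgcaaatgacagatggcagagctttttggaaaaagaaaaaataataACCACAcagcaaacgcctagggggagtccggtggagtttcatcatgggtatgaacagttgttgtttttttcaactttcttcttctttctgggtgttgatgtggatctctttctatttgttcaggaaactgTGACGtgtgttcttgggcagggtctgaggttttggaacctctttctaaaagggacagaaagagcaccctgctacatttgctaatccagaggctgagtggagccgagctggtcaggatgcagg
Serpinb9: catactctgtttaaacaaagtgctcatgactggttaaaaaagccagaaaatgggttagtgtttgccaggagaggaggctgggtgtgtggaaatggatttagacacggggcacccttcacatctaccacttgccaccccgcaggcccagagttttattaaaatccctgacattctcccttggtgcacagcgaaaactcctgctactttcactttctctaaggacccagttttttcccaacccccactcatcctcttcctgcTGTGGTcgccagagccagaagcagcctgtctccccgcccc
Serpinb6b: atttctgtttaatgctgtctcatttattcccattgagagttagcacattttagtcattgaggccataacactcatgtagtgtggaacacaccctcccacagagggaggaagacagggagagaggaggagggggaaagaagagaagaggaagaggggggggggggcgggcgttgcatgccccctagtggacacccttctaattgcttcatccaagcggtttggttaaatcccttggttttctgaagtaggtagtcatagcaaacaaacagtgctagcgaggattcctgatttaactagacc
Gzmc: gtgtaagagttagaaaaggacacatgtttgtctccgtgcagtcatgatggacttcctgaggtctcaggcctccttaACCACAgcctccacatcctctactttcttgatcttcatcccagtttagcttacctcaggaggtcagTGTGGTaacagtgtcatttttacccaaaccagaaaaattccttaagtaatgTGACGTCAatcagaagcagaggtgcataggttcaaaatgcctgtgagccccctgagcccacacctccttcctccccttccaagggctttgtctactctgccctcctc

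The full CRE, TGACGTCA, was found in the Gzmc promoter, 57 bases before the start, and in 1.79% of all 32851 RefSeq promoters of this length. Its short form TGACG, which the full motif also contains, was found in 4 of the 9 promoters and in 20.8% of all promoters; it began 92 bases before the start in Prf1, 72 before in Srgn and 5 after the start in Gzmb. The AP-1 motif TGANTCA was found in Gzmb alone, 58 bases before the start, against 7.81% of all promoters. The RUNX motif TGTGGT was found in 7 of the 9 promoters, among them Gzmb at 93 and 34 bases before its start, Prf1 at 130 before and Serpinb9 at 10 after, and in 16.8% of all promoters. The STAT element TTCNNNGAA was found 37 bases after the start in Gzmb and 220 before in Nkg7 (8.30% of all promoters), and the T-box motif AGGTGTGA 14 bases before the start of Nkg7 (1.28%). Serpinb6b held none of these letters in its window, and no member promoter held CACGTG, the E-box bound by BHLHE40 (7.15% of all promoters). A match of letters describes the sequence and is not evidence of a bound factor.

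Each RNA library held 7665955 to 11950488 counts in genes with a symbol, and each ATAC library 18522373 to 25318916 counts over all sites. RNA levels are given as CPM, which scale each library's counts to the same total and do not account for transcript length, so levels are compared within a gene and not between genes. A count of 0 allows up to 3 counts, which is 0.251 to 0.391 CPM depending on the library, and such floors cover counting error only. Prkaca, the gene of the catalytic subunit alpha of PKA, averaged 1.11 ± 0.29 CPM in activated KO cells and 49.6 ± 6.17 CPM in activated WT cells (SD, n = 3 each). Prkacb, the gene of the beta subunit, averaged 57.9 ± 1.56 CPM in activated KO cells and 55.9 ± 2.26 CPM in activated WT cells. After forskolin Prkaca and Prkacb were both lower in KO (edgeR adjusted p under 0.05), against 18.8% lower among all tested genes. In naive cells 1 of the 2 was lower in KO, against 0.117% lower among all tested genes. All 10 CD4 T cell markers were detected in every group, but their levels moved with genotype. In activated cells 4 of the 10 were lower in KO and none higher, against 9.04% lower and 5.89% higher among all tested genes. The 4 included Cd5 (-0.64 on the log2 scale), Thy1 (-0.78) and Trac (-0.56), while the median of the list was -0.07. The list summed to 2873 to 2906 CPM in KO libraries and 3398 to 3504 CPM in WT libraries. After forskolin 8 were lower and 2 higher, against 18.8% lower and 19.7% higher among all tested genes. The sums were then 3364 to 3542 CPM in KO libraries and 4063 to 4128 CPM in WT libraries. In naive cells 0 of 10 passed, against 0.242% of all tested genes. The part of these markers in the results was not tested. Since these are bulk libraries, fewer expressing cells and less RNA per cell cannot be told apart.

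In activated cells the granule genes were mostly lower in KO. Gzmb, Prf1, Serpinb6b, Serpinb9 and Srgn fell, while Nkg7, Ctsw and Gzmc did not pass the test and Gzma, with at most 1 count in any activated library, was not tested. The 5 that fell were among 8 members tested; of all 11980 genes tested, 9.04% were lower, 5.89% higher and 14.9% changed in either direction (edgeR quasi-likelihood test, Benjamini-Hochberg adjusted p under 0.05). Over all tested genes 706 were higher and 1083 lower, and upper-quartile scaling gave 987 higher and 843 lower. The 5 falls passed the test under every alternative run. The median log2 fold change of the 8 members was -1.39, against 0.01 for all tested genes.

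**Figure D1:**
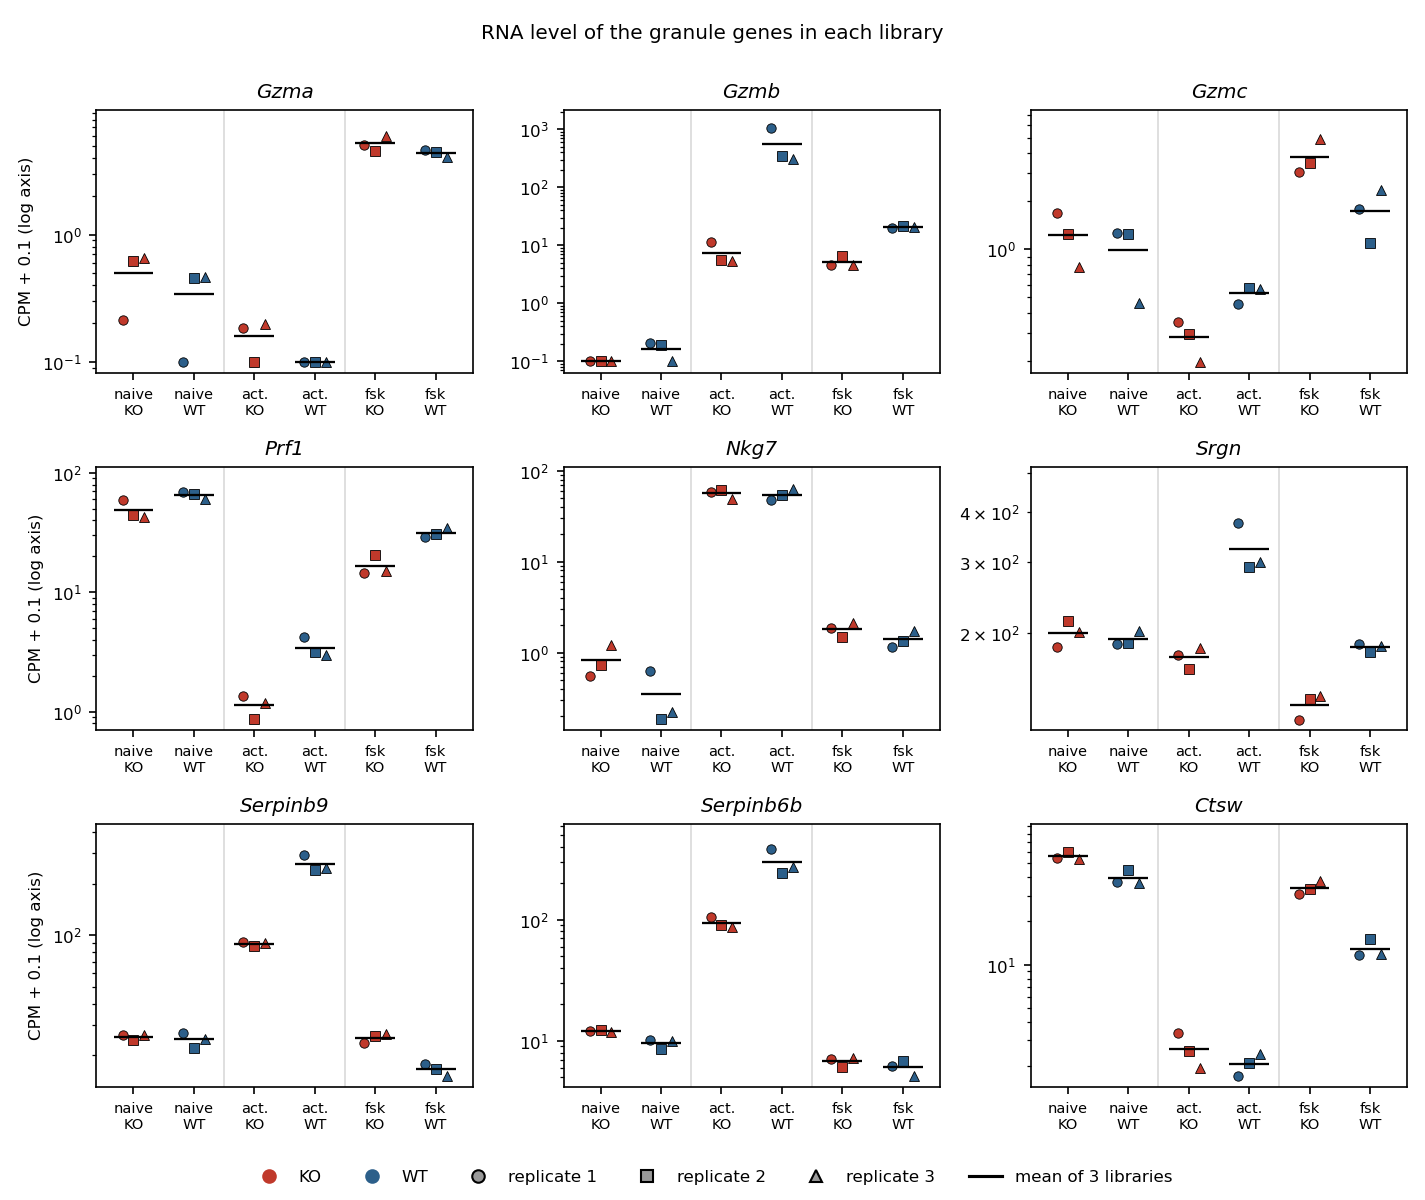
RNA level of each of the 9 granule genes in every library, as CPM + 0.1 on a log axis; red points are KO and blue points WT libraries, shapes give the replicate number of the labels, and bars are means of 3 libraries. In activated cells the 3 KO libraries of Gzmb sit at 5.25 to 11.3 CPM, all below the WT libraries at 306 to 1043 CPM.

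Gzmb, the serine protease of the granule that cuts caspase sites in target cells, had 11.3, 5.6 and 5.25 CPM in activated KO libraries, against 1043, 347 and 306 CPM in activated WT libraries. The groups did not overlap, and replicate 1 was the highest library in both genotypes. The fitted difference was -6.26 ± 0.70 on the log2 scale (SE), or 76.7-fold lower in KO, with an edgeR adjusted p of 0.0018. Between libraries of the same number, WT was 92.3, 62.0 and 58.2 times as high as KO. Without replicate 1 of activated WT the difference was -5.46 on the log2 scale.

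Gzma, a granule tryptase, held 1, 0 and 1 counts in activated KO libraries and 0 counts in all 3 activated WT libraries, which is at or under the floor in both, so no fold is given. Gzmc, which lies near Gzmb on chromosome 14, held 3, 2 and 1 counts in activated KO libraries, against 4, 5 and 5 counts in activated WT libraries. Its difference of -1.20 ± 0.67 did not pass the test (adjusted p = 0.266). How reads that match several members of the granzyme cluster or of the serpin families were counted is not given in the sources used here, so counts of Gzmc, Serpinb9 and Serpinb6b could include reads of close relatives.

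Prf1, the pore former, had 1.26, 0.772 and 1.07 CPM in activated KO libraries, against 4.11, 3.04 and 2.88 CPM in activated WT libraries. All KO libraries were lower than all WT libraries, at levels far under those of naive cells in both genotypes. The difference was -1.70 ± 0.26 on the log2 scale, 3.24-fold lower, with an adjusted p of 0.00017. Srgn had 176, 163 and 183 CPM in activated KO libraries, against 377, 292 and 300 CPM in activated WT libraries, a difference of -0.91 ± 0.10 (adjusted p = 5.5e-06).

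Serpinb9 had 90.8, 87.0 and 89.5 CPM in activated KO libraries, against 295, 240 and 248 CPM in activated WT libraries. The KO libraries were the tighter group, and the difference was -1.58 ± 0.08 on the log2 scale, 2.98-fold lower (adjusted p = 4.8e-10). Serpinb6b, the other serpin, had 105, 90.7 and 87.7 CPM in activated KO libraries, against 383, 241 and 275 CPM in activated WT libraries, a difference of -1.69 ± 0.14 (adjusted p = 3.7e-06). Replicate 1 of WT was again the highest library for both serpins.

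Nkg7, which is needed for efficient release of granules in mice, had 58.8, 61.1 and 49.0 CPM in activated KO libraries, against 47.6, 53.3 and 63.1 CPM in activated WT libraries. The groups overlapped, and the difference was 0.02 on the log2 scale with a 95% interval of -0.24 to 0.28, which leaves out falls of the size seen for Gzmb, Prf1, both serpins and Srgn. Ctsw had 3.26, 2.41 and 1.85 CPM in activated KO libraries, against 1.61, 1.99 and 2.32 CPM in activated WT libraries, overlapping values with a difference of 0.34 (95% interval -0.12 to 0.79, adjusted p = 0.379). Libraries of the genotypes did not overlap for 6 members, all lower in KO, against 17.1% of all tested genes lower without overlap and 39.2% without overlap in either direction.

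The summed CPM of 10 natural killer cell markers other than the members was 0 to 0.418 in activated KO libraries, with 7 markers at 0, and 0 to 0.0949 in activated WT libraries, with 8 at 0. Genes of cytotoxic cells that are not in that list were present. Klrk1, a receptor of natural killer and CD8 T cells, had 39.2, 22.8 and 11.8 CPM in activated KO libraries, against 53.6, 16.3 and 14.4 CPM in activated WT libraries, and the chemokine Ccl5 had 19.2, 8.30 and 7.39 CPM in activated KO libraries, against 51.8, 15.3 and 14.6 CPM in activated WT libraries. Both were highest in replicate 1 of each genotype, as Gzmb was, and neither passed the test between genotypes (adjusted p = 0.855 for Klrk1 and 0.200 for Ccl5). Cd8a averaged 0.352 ± 0.373 CPM in activated KO cells and 0.153 ± 0.138 CPM in activated WT cells, and Cd8b1 averaged 8.25 ± 1.98 and 7.22 ± 2.38 CPM in the same groups. The summed CPM of 5 B cell markers was 5.21 to 8.36 in activated KO libraries and 1.52 to 2.94 in activated WT libraries, mostly from Cd79b. Cd79b, 1 of the 2 tested, was higher in KO (1.16 on the log2 scale, edgeR adjusted p = 0.021). Of all tested genes 5.89% were higher. Of 5 genes common in regulatory T cells, Ctla4, Tnfrsf18 and Il2ra fell in KO, against 9.04% lower among all tested genes. They are also expressed by activated T cells of other kinds. The regulatory T cell list summed to 843 to 901 CPM in activated KO libraries and 1296 to 1447 CPM in activated WT libraries. Foxp3, which defines those cells, averaged 1.27 ± 0.41 CPM in activated KO cells and 1.21 ± 0.35 CPM in activated WT cells. The part of Klrk1, Ccl5 and the B cell and regulatory T cell markers in the results was not tested.

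**Figure D2:**
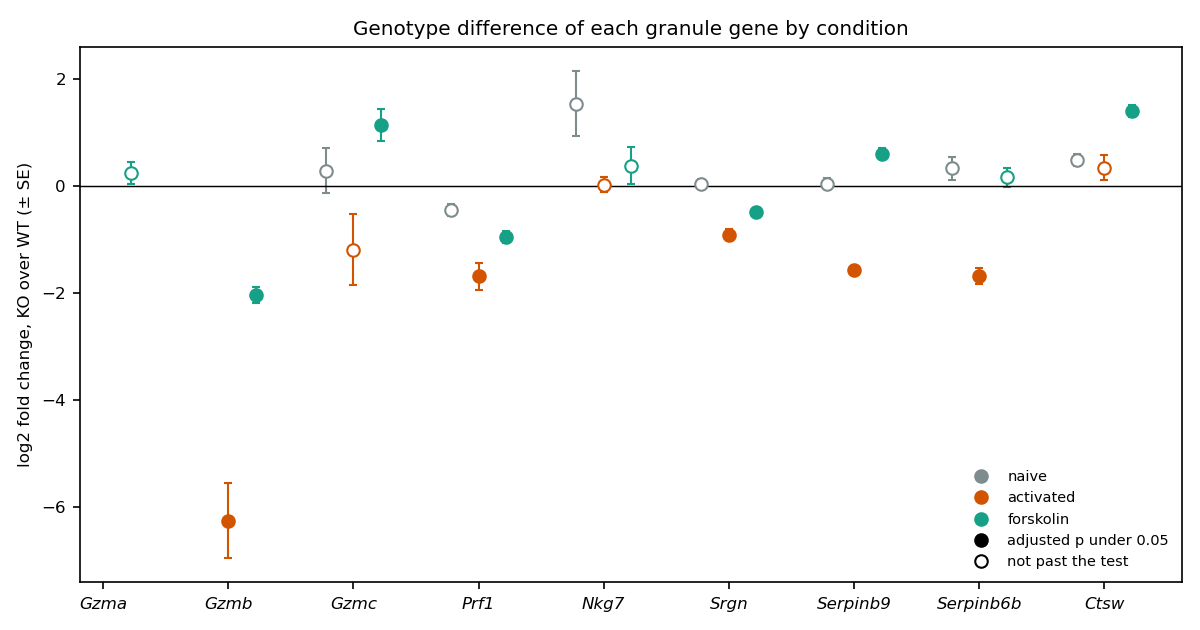
Log2 fold change of KO over WT with its SE for each gene in naive (grey), activated (orange) and forskolin-treated cells (green), with filled points for an edgeR adjusted p under 0.05. Naive Gzmb and untested Gzma are not drawn; Gzmb stands at -6.26 in activated and -2.04 in forskolin-treated cells, and the filled points above 0 are Ctsw, Gzmc and Serpinb9 after forskolin.

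Before activation the genotypes differed little. None of the 8 tested members passed the test in naive cells by edgeR, DESeq2 or limma-voom, and by edgeR 0.242% of all tested genes passed. Before adjustment 3 members (Ctsw, Prf1 and Nkg7) had a p under 0.05 by edgeR. The share of all genes under that unadjusted threshold was not computed, so this count has nothing to be read against. Prf1 had 59.5, 44.0 and 42.5 CPM in naive KO libraries, against 69.2, 67.1 and 60.6 CPM in naive WT libraries, a difference of -0.45 ± 0.12 (adjusted p = 0.218). Ctsw had 54.0, 60.1 and 53.7 CPM in naive KO libraries, against 37.2, 44.9 and 36.5 CPM in naive WT libraries, a difference of 0.48 ± 0.12 (adjusted p = 0.174). For both genes, and for Serpinb6b with 11.6 to 12.3 CPM in KO and 8.50 to 9.98 CPM in WT, the libraries did not overlap, which held for 7.85% of all tested genes, 4.97% higher and 2.87% lower in KO. Serpinb9 averaged 25.5 ± 0.93 CPM in KO cells before activation, against 24.6 ± 2.41 CPM in WT cells, and Srgn averaged 199.8 ± 14.8 and 193 ± 7.82 CPM. Gzmb had 0 counts in every naive KO library and 1, 1 and 0 counts in naive WT libraries.

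Activation moved all 8 tested members, in directions that differed between genes. In KO cells 4 rose (Gzmb, Nkg7, Serpinb6b and Serpinb9) and 4 fell (Ctsw, Prf1, Gzmc and Srgn), and in WT cells 5 rose, Srgn being the fifth, and 3 fell. So broad a response was general: 82.1% of all tested genes changed in KO (42.3% higher and 39.8% lower) and 82.6% in WT (42.3% and 40.3%), so the counts of members say little by themselves. Gzmb summed to 247 counts in activated KO and 0 in naive KO libraries, at least 69.2-fold higher when 3 counts are set for the whole naive group. In WT it summed to 18629 counts in activated and 2 in naive libraries, a ratio of 8307 with a 95% counting interval of 2299 to 68596. The rise of Gzmb in KO lost the test when any naive KO library or replicate 1 of activated KO was left out (adjusted p up to 0.0787).

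The serpins rose in both genotypes and less in KO. Serpinb6b rose by 2.86 ± 0.18 on the log2 scale in KO cells and by 4.87 ± 0.18 in WT cells, which is 7.24-fold in KO and 29.2-fold in WT. Serpinb9 rose by 1.68 ± 0.09 in KO cells and by 3.29 ± 0.09 in WT cells. Srgn fell by 0.33 ± 0.10 in KO cells and rose by 0.62 ± 0.10 in WT cells, directions that held under every scaling tried. Perforin ran the other way: Prf1 fell by 5.66 ± 0.19 in KO cells and by 4.41 ± 0.15 in WT cells, leaving means of 1.03 ± 0.24 CPM in activated KO cells, against 48.7 ± 9.41 CPM in naive KO cells, and of 3.34 ± 0.67 CPM in activated WT cells, against 65.6 ± 4.52 CPM in naive WT cells. Cd8a and Cd8b1 together summed to 26.1 to 27.9 CPM in naive KO and 6.37 to 10.2 CPM in activated KO libraries. In WT they summed to 23.2 to 23.9 CPM in naive and 5.39 to 10.2 CPM in activated libraries. Natural killer cell markers summed to at most 0.520 CPM in any naive or activated library. The 2 gamma-delta T cell markers found summed to 8.03 to 10.2 CPM in naive KO and 0.965 to 1.65 CPM in activated KO libraries. Their sums in WT were 8.92 to 10.7 CPM in naive and 0.465 to 1.52 CPM in activated libraries. The part of these markers in the results was not tested.

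The difference of these activation responses between genotypes was tested as an interaction. It passed for 4 of 8 members, against 3.70% of all tested genes, 2.52% more negative and 1.18% more positive in KO (302 and 141 genes, or 257 and 192 with upper-quartile scaling). Serpinb6b (-2.01 ± 0.26, adjusted p = 0.00056), Serpinb9 (-1.61 ± 0.13), Prf1 (-1.24 ± 0.29, adjusted p = 0.018) and Srgn (-0.95 ± 0.14) were all more negative in KO. The interaction of Prf1 missed the threshold in limma-voom (adjusted p = 0.119) and in the fits without replicate 1 of activated WT or replicate 2 or 3 of activated KO (up to 0.0913). Nkg7 rose by 6.12 ± 0.24 in KO and 7.63 ± 0.28 in WT from 20 and 7 naive counts in all, with an interaction of -1.52 ± 0.62 that did not pass (adjusted p = 0.23). Gzma summed to 2 counts in activated KO and 11 in naive KO libraries, a ratio of 0.153 with a 95% counting interval of 0.0165 to 0.7, and to 0 in activated WT and 7 in naive WT libraries, at least 2.62-fold lower. Ctsw fell by 4.59 ± 0.16 in KO and 4.44 ± 0.17 in WT. Gzmc fell by 2.67 ± 0.56 in KO and 1.20 ± 0.49 in WT, the WT fall being lost in DESeq2 (adjusted p = 0.0966), limma-voom and 5 leave-one-out fits. Gzmb has no usable interaction, since both naive groups were at or under the floor.

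Over the 12 naive and activated libraries, the 5 genes whose log2 CPM followed Gzmb most closely were Notch2 (Pearson r = 0.994), Slc17a6 (0.993), Serpinb9 (0.992), Pcgf5 (0.991) and Slc6a6 (0.990), among 11980 genes. These correlations describe libraries that share their groups and depth, and carry no test. Notch2, a Notch receptor, averaged 198 ± 3.85 CPM in activated KO and 368 ± 28.3 CPM in activated WT cells, and Slc17a6, a glutamate transporter of vesicles, averaged 2.97 ± 0.71 and 29.3 ± 10.7 CPM in the same groups.

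After forskolin the members parted in direction. Of 9 tested, Ctsw, Gzmc and Serpinb9 were higher in KO and Gzmb, Prf1 and Srgn lower, while Gzma, Nkg7 and Serpinb6b did not pass. In this fit of 6 libraries 38.5% of all 11658 tested genes passed, 19.7% higher and 18.8% lower, so a share of 6 in 9 is read against a broad genotype difference. The libraries of KO and WT did not overlap for these 6 genes, against 48.1% of all tested genes (26.8% higher and 21.3% lower). All 6 calls held under every alternative run.

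Gzmb had 4.49, 6.38 and 4.53 CPM in forskolin KO libraries, against 19.7, 21.8 and 20.5 CPM in forskolin WT libraries. The groups were tight and apart, with a difference of -2.04 ± 0.15 on the log2 scale, 4.11-fold lower (edgeR adjusted p = 1.7e-12). Prf1 had 14.4, 20.3 and 14.9 CPM in forskolin KO libraries, against 29.0, 30.9 and 34.7 CPM in forskolin WT libraries, a difference of -0.96 ± 0.11. Srgn had 121, 137 and 139 CPM in forskolin KO libraries, against 188, 179 and 186 CPM in forskolin WT libraries, a difference of -0.50 ± 0.04.

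Ctsw had 30.6, 33.1 and 38.0 CPM in forskolin KO libraries, against 11.5, 14.9 and 11.7 CPM in forskolin WT libraries. Every KO library was more than 2 times the highest WT library, and the difference was 1.40 ± 0.11 on the log2 scale, 2.63-fold higher (adjusted p = 2.8e-11). Serpinb9 had 23.4, 25.8 and 26.4 CPM in forskolin KO libraries, against 17.7, 16.6 and 15.0 CPM in forskolin WT libraries, a difference of 0.59 ± 0.10 in the direction opposite to that in activated cells. Gzmc held 35, 32 and 53 counts in forskolin KO libraries, against 13, 8 and 21 counts in forskolin WT libraries, a difference of 1.13 ± 0.30 (adjusted p = 0.0033). Gzma held 59, 42 and 65 counts in forskolin KO libraries, against 35, 35 and 37 counts in forskolin WT libraries, more than in any naive or activated library. Its difference of 0.24 ± 0.21 did not pass (adjusted p = 0.392), nor did those of Nkg7 (0.37 ± 0.35) and Serpinb6b (0.15 ± 0.18).

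Beside these forskolin results, Cd8b1 averaged 22.2 ± 2.16 CPM in forskolin KO cells and 15.6 ± 2.40 CPM in forskolin WT cells, while Cd8a averaged 1.54 ± 0.27 and 1.61 ± 0.745 CPM in the same groups. Foxp3, the defining factor of regulatory T cells, averaged 40.2 ± 3.23 CPM in forskolin KO cells and 16.2 ± 1.72 CPM in forskolin WT cells. The summed CPM of 5 regulatory T cell markers was 223 to 263 in KO libraries and 217 to 238 in WT libraries. Of these 5 markers 2 were higher and 2 lower in KO, against 19.7% higher and 18.8% lower among all tested genes. The median log2 fold change of the 5 was 0.01. The natural killer cell markers summed to 1.27 to 1.81 CPM in KO libraries, with 4 of 10 at 0, and to 1.12 to 1.61 CPM in WT libraries, with 7 of 10 at 0. The 2 gamma-delta T cell markers summed to 8.70 to 14.1 CPM in KO libraries and 8.80 to 9.78 CPM in WT libraries. The part of these markers in the results was not tested.

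Whether the genotype difference itself changed between forskolin and activated cells was tested in a joint fit of all 18 RNA libraries, chosen after seeing the data, in which condition and table cannot be told apart. The difference was more positive after forskolin for 6 of 9 members, against 12.3% of all 12607 tested genes (5.82% less positive, 18.1% in either direction). Over all genes 1548 were more positive and 734 less, and upper-quartile scaling gave 1123 and 1180. Serpinb9 differed by 2.21 ± 0.13 and Serpinb6b by 1.89 ± 0.29, both past the test in every alternative run. Gzmb differed by 4.25 ± 1.03 (adjusted p = 0.016; 0.0538 without replicate 2 of forskolin KO), Gzmc by 2.37 ± 0.75 (adjusted p = 0.028; up to 0.0795 when any of 6 libraries was left out), Ctsw by 1.09 ± 0.28 (0.0538 in limma-voom) and Srgn by 0.45 ± 0.13 (0.0545 with upper-quartile scaling, and up to 0.0574 without replicate 1 of activated WT, replicate 2 of activated KO or replicate 3 of forskolin KO). Prf1, at 0.77 ± 0.31, did not pass (adjusted p = 0.0900).

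Other genes of the granule pathway, from lists made with earlier results of these data known, moved less uniformly in activated cells, and their counts stand beside 9.04% lower and 5.89% higher among all tested genes. Of 7 further granzymes only Gzmm was tested and it did not pass, with 0.629 ± 0.317 CPM in activated KO and 0.583 ± 0.125 CPM in activated WT cells. Gzmf, not tested, held 9, 2 and 4 counts in activated KO libraries, against 5, 5 and 5 counts in activated WT libraries. Gzmd and Gzmk had 0 counts in every activated library. Of 5 tested genes for granzyme processing and protease inhibitors, 2 fell and 1 rose in KO: the serpin Serpinb6a (-0.64), the cystatin Cst3 (-0.49) and the cystatin Cst7 (0.39), while the granzyme-processing protease Ctsc did not pass. Of 21 tested genes for granule traffic and release, 7 fell and 1 rose, the falls including Ap3b1, a subunit of the AP-3 sorting adaptor (125 ± 4.03 CPM in activated KO against 291 ± 20.9 CPM in activated WT), the fusion protein Stx11 (40.6 ± 1.24 against 76.7 ± 1.03 CPM), and Gnptab, of the mannose 6-phosphate tag on lysosomal enzymes (-0.58). The median of this list was -0.12.

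Of 16 tested regulators known to favour cytotoxic genes, 10 fell and 2 rose in activated KO cells, with a median of -0.56, against 9.04% lower and 5.89% higher among all tested genes. Stat4, which carries the IL-12 signal, averaged 50.4 ± 2.93 CPM in activated KO and 263 ± 18 CPM in activated WT cells (-2.41 on the log2 scale), Bhlhe40 averaged 134 ± 6.48 and 442 ± 52.9 CPM (-1.75), and the Notch effector Rbpj averaged 67.4 ± 1.94 and 172 ± 12.6 CPM (-1.37). Not all favouring regulators were lower. In the same groups Batf averaged 61.9 ± 6.07 and 34.0 ± 2.40 CPM, and Id2 averaged 34.2 ± 1.74 and 23.5 ± 1.99 CPM. Tbx21 averaged 142 ± 6.51 and 128 ± 7.52 CPM, and Eomes averaged 138 ± 21.4 and 169 ± 20.1 CPM. Of 8 regulators known to oppose cytotoxic genes, 1 rose (Tcf7, 0.44) and 2 fell (Foxo1, -0.43, and Bcl6, -1.42), with a median of -0.16. Of 5 death ligands and cytokines, Fasl (-0.75) and Ifng (-1.32) fell and Lta (1.09) rose. Of 10 tested surface and chemokine genes of cytotoxic cells, Ccl4 (-1.08) and Ccl3 (-0.37) fell and Adgrg1 (1.29) rose.

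After forskolin, where 38.5% of all genes passed, these lists gave different counts. Of 13 tested favouring regulators 4 were higher and 5 lower in KO, Stat4 again being lower at 36.8 ± 2.41 CPM in forskolin KO and 132 ± 2.16 CPM in forskolin WT cells. Of 21 genes for traffic and release 3 were higher and 4 lower, and of 8 opposing regulators 3 were higher and 3 lower. Of 5 genes for granzyme processing and protease inhibitors 2 were higher and none lower, and neither the 4 tested surface and chemokine genes nor Gzmm passed. Of 4 death ligands and cytokines 2 were higher and 1 lower in KO. Lta averaged 33.2 ± 3.18 CPM in forskolin KO and 13.7 ± 1.67 CPM in forskolin WT cells, and Fasl averaged 2.35 ± 0.45 CPM in forskolin KO and 8.90 ± 0.67 CPM in forskolin WT cells.

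Open chromatin was compared at 37 ATAC sites lying in the RefSeq gene span of a member or within 10 kb of it, each about 400 bases wide, with coordinates as deposited on mm10. Serpinb9 had 9 sites, Ctsw and Srgn 6 each, Prf1 and Serpinb6b 4 each, Gzmc and Nkg7 3 each, and Gzma and Gzmb 1 each. In activated cells 14 of the 37 were lower and 2 higher in KO, against 17.5% lower and 10.9% higher among all 110797 tested sites, or 28.4% in either direction (edgeR on the deposited counts). The authors' deposited table called 5 of them, all lower, against 5.16% of its 110808 sites (4.64% lower and 0.519% higher). A site's lower count, like that of a gene, does not tell fewer open cells from less opening per cell.

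The Gzmb site, chr14:56262177-56262577, covers the start of the gene and so most of the promoter printed above. It held 216, 171 and 181 counts in activated KO libraries, against 1114, 826 and 720 counts in activated WT libraries. That is 8.87 ± 0.90 and 37.2 ± 5.92 ATAC CPM (scaled to the counts over all sites) in these groups, which did not overlap, and a difference of -2.09 ± 0.16 on the log2 scale, 4.27-fold lower (edgeR adjusted p = 1.8e-08). In the authors' deposited table this site had an FDR of 0.029. In naive cells it held 34, 33 and 18 counts in KO libraries, against 66, 53 and 27 counts in WT libraries, a difference that did not pass (-0.73 ± 0.29, adjusted p = 0.30). The interaction of genotype and activation passed at -1.37 ± 0.34 (adjusted p = 0.023).

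**Figure D3:**
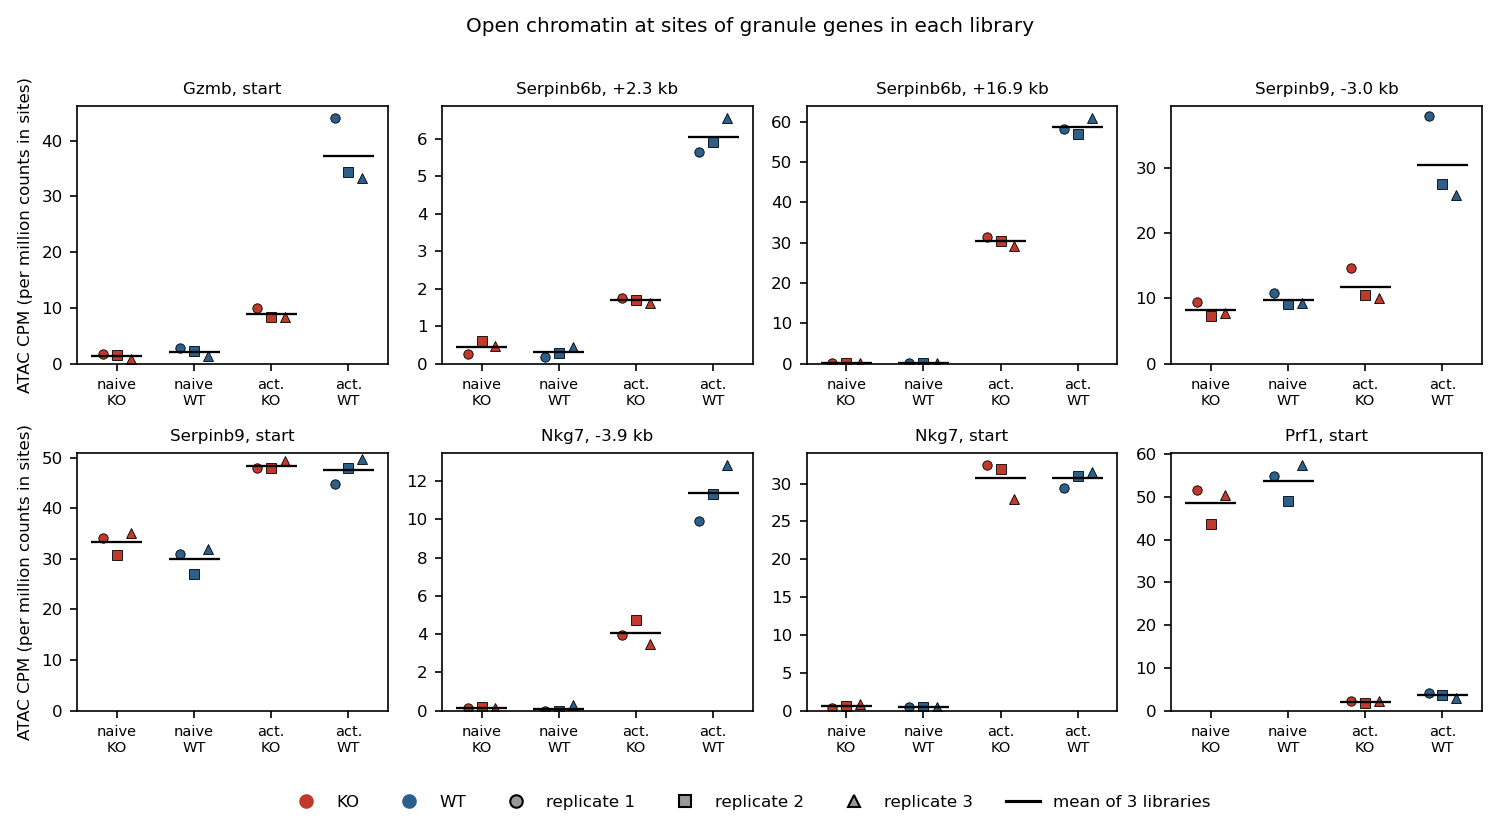
ATAC CPM at 8 sites of 5 genes, per library, with KO red, WT blue, shapes for replicate numbers and bars for means; titles give the distance from the gene's start. The Gzmb start and the Nkg7 site 3889 bases upstream are lower in all 3 activated KO libraries, while the starts of Nkg7 and Serpinb9 overlap between genotypes.

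Serpinb6b and Serpinb9 lie near each other on chromosome 13, and 7 of their 13 sites were lower in activated KO cells with none higher. No site covered the Serpinb6b start, and the nearest, chr13:32965409-32965809, 348 bases after it, held 537, 468 and 471 counts in activated KO libraries, against 814, 641 and 599 counts in activated WT libraries (-0.35 ± 0.09, adjusted p = 0.0039). The authors' deposited table did not call that nearest site. At chr13:32967317-32967717, 2256 bases after the Serpinb6b start, there were 38, 35 and 35 counts in activated KO libraries, against 143, 142 and 142 counts in activated WT libraries. The difference was -1.85 ± 0.18 (adjusted p = 1.2e-07; 0.00031 in the authors' deposited table) and the interaction -2.49 ± 0.44 (adjusted p = 0.0015). At chr13:32981947-32982347, between both genes, there were 684, 627 and 626 counts in activated KO libraries, against 1472, 1368 and 1318 counts in activated WT libraries, while no naive library of either genotype had over 5 counts. That site differed by -0.98 ± 0.09 and the authors' deposited table gave it an FDR of 0.15.

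At Serpinb9 the start itself, chr13:33004391-33004791, gave no difference past the test (1045, 990 and 1063 counts in activated KO libraries, against 1135, 1153 and 1080 counts in activated WT libraries; difference 0.01 ± 0.07). The site 3030 bases before it, chr13:33001311-33001711, held 319, 217 and 215 counts in activated KO libraries, against 960, 662 and 561 counts in activated WT libraries. It differed by -1.41 ± 0.17 (adjusted p = 1.4e-05; 0.084 in the authors' deposited table), with an interaction of -1.16 ± 0.25 (adjusted p = 0.013). Weaker sites 13760 and 21529 bases after the start were also lower, with differences of -1.37 ± 0.32 and -2.05 ± 0.44, and the authors' deposited table called both.

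**Figure D4:**
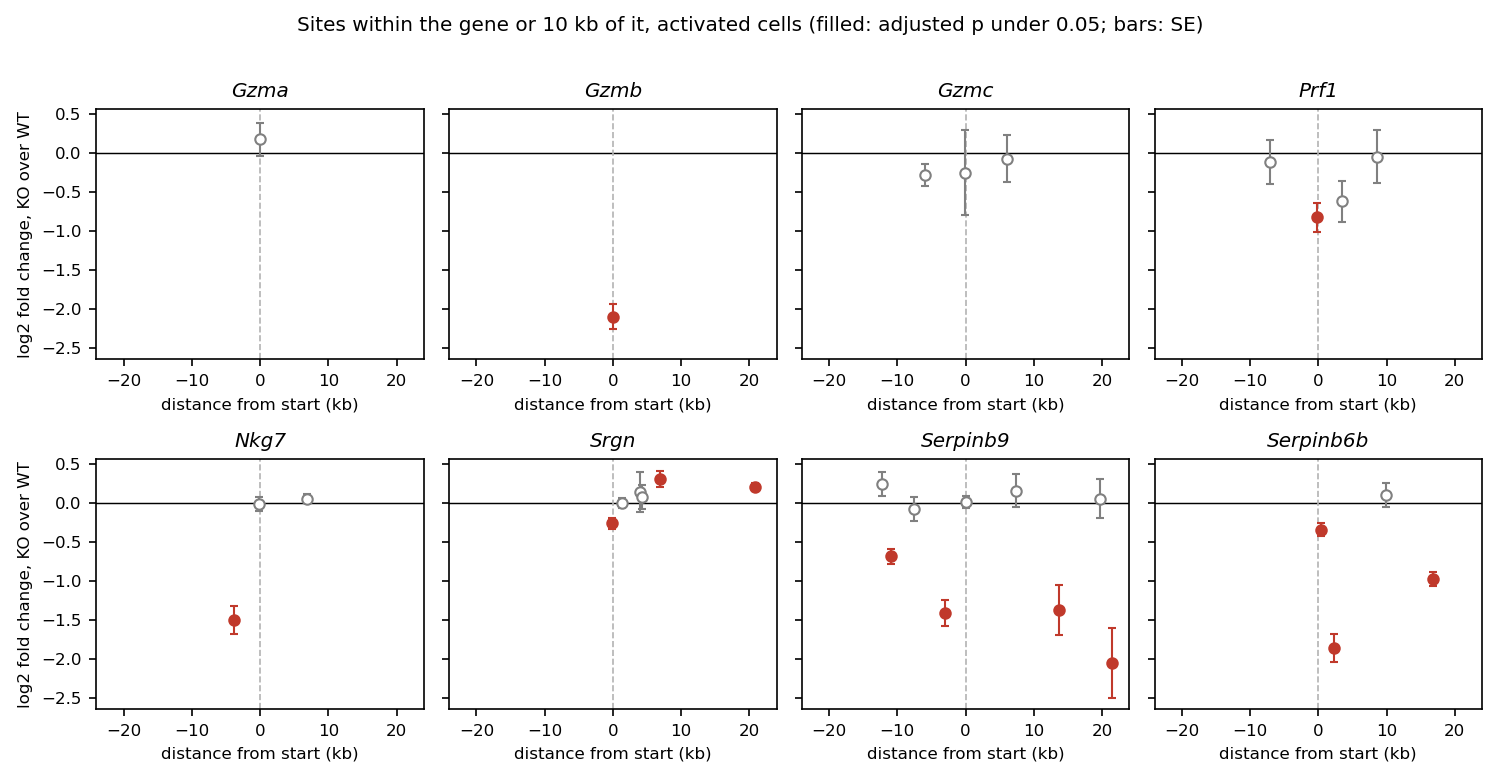
Log2 fold change of KO over WT with its SE in activated cells at every site of 8 granule genes, by distance from the RefSeq start in kb (negative is upstream); filled points passed the test. Around Serpinb9 the start lies at 0.01 while sites on both sides reach -1.41 and -2.05, and Nkg7 has a filled point at -1.50 upstream and an open one at -0.02 at its start.

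At Nkg7 an upstream site was lower in KO, while its start and its RNA were not past the test. Its start, chr7:43436769-43437169, held 707, 659 and 600 counts in activated KO libraries, against 746, 746 and 685 counts in activated WT libraries, a difference of -0.02 ± 0.09 beside the RNA difference of 0.02. The site at chr7:43433049-43433449, 3889 bases upstream, held 86, 98 and 75 counts in activated KO libraries, against 251, 272 and 278 counts in activated WT libraries. It differed by -1.50 ± 0.18 (adjusted p = 2.2e-06), and the authors' deposited table gave an FDR of 0.0039. Its interaction of -2.49 ± 0.90 did not pass (adjusted p = 0.12).

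Prf1 lost most of its open chromatin on activation in both genotypes, in the direction of its RNA. Its start, chr10:61297457-61297857, averaged 2.06 ± 0.32 ATAC CPM in activated KO cells and 48.6 ± 4.27 in naive KO cells, and 3.58 ± 0.54 in activated WT cells and 53.8 ± 4.28 in naive WT cells. The activation differences were -5.16 ± 0.13 in KO and -4.46 ± 0.12 in WT, against a median over all sites of 0.44 in KO and 0.54 in WT. All 4 Prf1 sites fell on activation in both genotypes. Within activated cells the start was lower in KO by 0.82 ± 0.18 on the log2 scale (adjusted p = 0.002), with an FDR of 0.50 in the authors' deposited table.

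The Srgn start, chr10:62507625-62508025, differed by -0.26 ± 0.07 in activated KO cells (adjusted p = 0.0065), while sites 6907 and 20846 bases after it were higher, by 0.30 ± 0.11 and 0.20 ± 0.05, the nearer being lost with RLE scaling (adjusted p = 0.0519). At Ctsw 3 of 6 sites were lower in activated KO cells, with differences of -0.46 to -0.40 (2 of 6 with library size alone, chr19:5474638-5475038 having an adjusted p of 0.0545), and the site at chr19:5468335-5468735 had an interaction of -0.58 ± 0.17 (adjusted p = 0.048; 0.0758 with RLE scaling and 0.0678 with library size alone), while the RNA of Ctsw did not pass the test in activated cells. In activated cells the authors' deposited table called none of these Srgn and Ctsw sites. None of the 3 Gzmc sites passed, and the smallest p was at chr14:56240409-56240809, with a difference of -0.28 ± 0.14. In naive cells 1 of 37 sites passed, and it was higher in KO, against 0.938% of all sites higher, 0.607% lower and 1.54% in either direction (1039 higher and 672 lower, or 649 and 816 with RLE scaling). It was the Gzma start, chr13:113100846-113101246, with 210, 203 and 292 counts in KO libraries, against 169, 155 and 153 counts in WT libraries (0.58 ± 0.14, adjusted p = 0.039). RLE scaling did not call it, nor did the authors' deposited table, which called 0 of the 37 sites and 0.0171% of all sites (0.0108% higher and 0.00632% lower).

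Activation itself moved 33 of the 37 sites in each genotype, against 88.5% of all sites in KO (49.7% higher, 38.8% lower) and 89.9% in WT (51.4% higher, 38.5% lower). In KO 17 were higher and 16 lower, and in WT 18 and 15. Scaling to library size alone gave 22 higher and 13 lower in KO and 21 and 12 in WT, with a median over all sites of 1.04 in KO and 1.09 in WT. The split over all sites in KO was 55072 higher and 43005 lower, or 67189 and 31196 with that scaling, and in WT 56956 and 42685, or 66656 and 32401. The interaction of genotype and activation passed at 4 of the 37 sites, all more negative in KO, or at 3 with RLE scaling and, with library size alone, at 5 more negative and 1 more positive (the Srgn site 20846 bases after the start), against 5.09% of all sites more negative, 0.491% more positive and 5.58% in either direction (544 more positive and 5638 more negative, or 2132 and 5705 with library size alone).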

How the data were processed

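RNA and open chromatin were measured in 18 RNA-seq and 12 ATAC-seq libraries, 3 per group, grouped by the labels. The RNA tables hold whole-number counts per gene, deposited without normalization as the values show, and the ATAC table holds counts per site as deposited, beside the authors' deposited log2 fold change and FDR (an adjusted p-value) for each site. The build was mm10, per the submitters' processing notes; aligner, counter, peak caller and the authors' test are not given in the sources used here. The authors' deposited log2 fold change equalled the unscaled log2 ratio of WT over KO at 100% of sites within 0.01, and its sign was turned here to KO over WT.

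The members and the gene lists were chosen with earlier results of these data known. Of 27179 features in the naive and activated table, 1314 without a symbol (0.128% to 0.159% of counts) were left out. Genes passing filterByExpr were tested with edgeR 4.0.16 (quasi-likelihood, TMM, R 4.3.3) and p-values were Benjamini-Hochberg adjusted over all genes or sites, with a threshold of 0.05. The 12 naive and activated RNA libraries shared a fit, as did the 12 ATAC libraries; the 6 forskolin libraries had their own. A joint fit of all 18 RNA libraries was added after seeing the data. Named were all 9 members, Prkaca and Prkacb, up to 3 genes of each list with the smallest p among those past the test in activated cells, the 5 genes most correlated with Gzmb, and at each member the ATAC site with the smallest p. Other sites, Ctsc, Gzmm, Gzmf, Gzmd and Gzmk, Klrk1, Ccl5, Batf, Id2, Tbx21, Eomes, marker genes and forskolin values of list genes were picked with their values in view. The scripts were tested on simulated data. Alternatives were RLE and upper-quartile scaling, no low-count filter, DESeq2 1.42.0, limma-voom 3.58.1, a replicate block and leaving out each library; for sites, library-size scaling and other windows.

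Same-numbered libraries were taken as paired where every pair's deviations correlated over 0.1: activated KO with activated WT (0.557, 0.280 and 0.236) and activated KO with naive KO (0.360, 0.180 and 0.126). The numbers come from the labels, which do not say what they stand for. Libraries of different numbers were not correlated, so a value over 0.1 does not establish a pairing. The reported fits used no pairing, and the replicate block was an alternative only.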

Additional observations from a re-analysis of the deposited data

Results flagged for a closer look

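The genotype difference itself differed between conditions for several members, by a test of that difference (edgeR quasi-likelihood, adjusted p under 0.05). Between activated and naive cells it was more negative in activated cells for Serpinb6b (-2.01 on the log2 scale), Serpinb9 (-1.61), Prf1 (-1.24) and Srgn (-0.95). Between forskolin and activated cells it was more positive after forskolin for Gzmb (4.25), Gzmc (2.37), Serpinb9 (2.21), Serpinb6b (1.89), Ctsw (1.09) and Srgn (0.45). At open chromatin it was more negative in activated than in naive cells at 4 sites: near the Gzmb start (-1.37), 3030 bases before the Serpinb9 start (-1.16), 2256 bases after the Serpinb6b start (-2.49) and at a Ctsw site (-0.58), the last not past the test with RLE scaling (adjusted p = 0.0758) or library size alone (0.0678). Among the RNA results, Prf1 between activated and naive cells did not pass under every alternative run. The same held for Gzmb, Gzmc, Ctsw and Srgn between forskolin and activated cells. That comparison came from the joint fit chosen after seeing the data, in which condition and table cannot be told apart.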

How the results depend on the processing

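Of 56 gene results, 42 kept their sign and their side of the threshold under every alternative run; over all gene results and alternatives 800 values held both, 27 lost and 4 gained the test, and 10 changed sign, all 10 when a library was left out. No member passed in naive cells in the reported fit, while 1 did with no low-count filter (Ctsw), 2 with the replicate block (Ctsw and Prf1, although naive libraries did not pair by the rule used), and 0 to 1 without a library (Prf1, without replicate 1 of naive KO). The replicate block changed no call of a member in activated KO against WT or in activation of KO, the comparisons whose libraries paired by that rule. The sign changed over libraries left out for Nkg7 in activated KO against WT (-0.069 to 0.13), for Gzmc (-0.039 to 0.53), Serpinb9 (-0.037 to 0.073) and Srgn (-0.046 to 0.096) in naive KO against WT, and for the Ctsw interaction (-0.38 to 0.028), none of them past the test. The 16 member sites past the test in activated KO against WT became 8 within gene spans only, 40 within 50 kb, 5 by the authors' deposited FDR and 12 to 15 without a library. The 1 naive site became 0 with RLE scaling, 2 within 50 kb, 0 by the authors' deposited FDR and 0 to 1 without a library. On activation 33 sites in KO became 18 within gene spans and 84 within 50 kb, and 33 in WT became 19 and 88; windows differ because they hold other sites. For the rest, the cause was not tested. Depth limits Gzma and Gzmc in activated cells and Gzmb in naive cells, at or near 3 counts, so the Gzmb interaction was left out.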
